A study of Mus musculus with 6 samples.

Results

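The mouse zinc-finger genes named Zfp900 to Zfp999 were examined for the chromatin subcompartment they occupied and for the chromatin loops that reached them. Members were all protein-coding autosomal genes whose symbol is Zfp9 followed by exactly 2 digits in the RefSeq annotation of GRCm38.p6, which is the assembly behind mm10. This gave 62 of 20665 protein-coding autosomal genes, on 13 chromosomes. Of these, 42 lay in 6 clusters, runs of members on 1 chromosome with neighbours no more than 1 Mb apart, and 20 lay alone. The members were compared with all protein-coding genes and with the other 298 genes whose symbol is Zfp and a number.

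Most genes of this kind encode proteins with arrays of C2H2 zinc fingers, which read DNA sequence, and many of them also carry a KRAB domain. KRAB zinc-finger proteins recruit Trim28, which brings in Setdb1, HP1 proteins and DNA methyltransferases, and much of what they silence in embryonic stem cells is retrotransposon sequence. The genes arise by tandem duplication, so that neighbours in a cluster are often close copies of each other. Hi-C, which ligates DNA ends that lie close together in the nucleus, sorts the genome into an active A and an inactive B compartment, and finer classes within each are called subcompartments.

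The series holds 6 Hi-C libraries of E14 cells, a wild-type line of mouse embryonic stem cells, harvested 48 h after transfection with esiRNA, a pool of short interfering RNAs cut from long double-stranded RNA. Control cells received esiRNA against EGFP, Brg1KD cells received esiRNA against Smarca4, which encodes Brg1, the ATPase of the esBAF chromatin remodeller, and Ino80KD cells received esiRNA against Ino80, the ATPase of the INO80 remodeller. Each group had 2 libraries, and per the labels the replicate number is also the batch. Whether the 2 replicates of a group were grown as separate cultures is not stated in the labels, and p-values then measure a spread that may be technical. Hi-C measures no RNA, so how far the targeted genes were reduced was not analysed here. Smarca4 and Ino80 themselves lay in A.1.1 in all 6 libraries, 10 of 10 pluripotency markers lay in A in every library, and 4 of 6 fibroblast markers did.

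Each library has its own map of 8 subcompartments, from B.2.2 (rank 1, the most inactive) through B.2.1, B.1.2 and B.1.1 (rank 4) to A.2.2 (rank 5), A.2.1, A.1.2 and A.1.1 (rank 8, the most active). A gene was given the label of the 50 kb bin that holds its midpoint, and a step of 1 rank is called 1 class. A difference in rank is positive towards A. In all, 53 members had a label in all 6 libraries, in 53 different bins. These bins are not independent, since they fell in only 32 to 36 segments per library.

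In control cells many of these genes had ranks near the border between A and B. This is a place on the rank scale, and distance from a border along the chromosome was not measured. Of the 53 members, 43.4% and 47.2% lay in B.1.1 or A.2.2, the 2 classes that meet at the border, in control replicates 1 and 2. Among all 20375 protein-coding genes with a label the shares were 13.5% and 12.8%, and among the 296 other Zfp genes with a label they were 12.2% and 14.2%. The lowest and the highest class held smaller shares of the members than of all genes. A.1.1 held 15.1% of the members in each control library against 37.0% and 40.7% of all genes, and no member was in B.2.2 in any library, where 6.62% and 7.20% of all genes lay in the controls. The median rank was 5 in both control libraries for the members and 7 for all genes and for the other Zfp genes.

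The share of members on the A side was 70.8% ± 1.33 (SD, n = 2 libraries) in control cells, 74.5% ± 4.00 in Brg1KD and 71.7% ± 0 in Ino80KD, where both libraries gave the same number. All protein-coding genes gave 71.9%, 71.8% and 71.3%, and the other Zfp genes 86%, 88.3% and 86.3%. In the share on the A side the members were thus close to all genes, while their place within A and within B was not. In every library 35 members were in A and 12 were in B, and 6 members (11.3%, against 7.73% of all genes) were on one side in some libraries and on the other side in the rest. The 4 members in A.1.1 in all 6 libraries were Zfp933, Zfp956, Zfp940 and Zfp936.

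**Figure D1:**
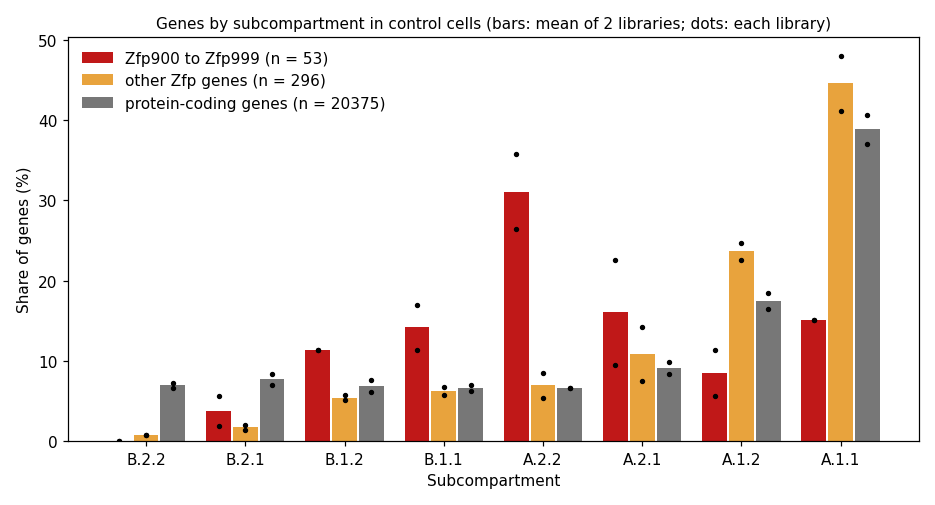
Share of genes (%) in each of the 8 subcompartments in control cells, for 53 members, 296 other Zfp genes and 20375 protein-coding genes; bars are means of 2 libraries and dots are the libraries. The members (red) peak at A.2.2, where 26.4% and 35.8% of them lay, while the other sets peak at A.1.1.

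Labels of the members repeated less well between control libraries than those of other genes. The replicates gave the same label for 54.7% of members in control cells, 56.6% in Brg1KD and 75.5% in Ino80KD. For all protein-coding genes these shares were 72.8%, 73.5% and 74.8%, so the members stood below all genes in control and Brg1KD and close to them in Ino80KD. No test was made of this, since members share segments. Only 14 members (26.4%) kept 1 label in all 6 libraries, against 44.8% of all genes, 42.9% of the other Zfp genes and 33.8% of all bins. Of the members that varied, 31 ranged over 1 class, 7 over 2 classes and 1, Zfp984, over 3. A range of 2 classes or more was seen for 15.1% of members, against 10.8% of all genes and 11.8% of the other Zfp genes.

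**Figure D2:**
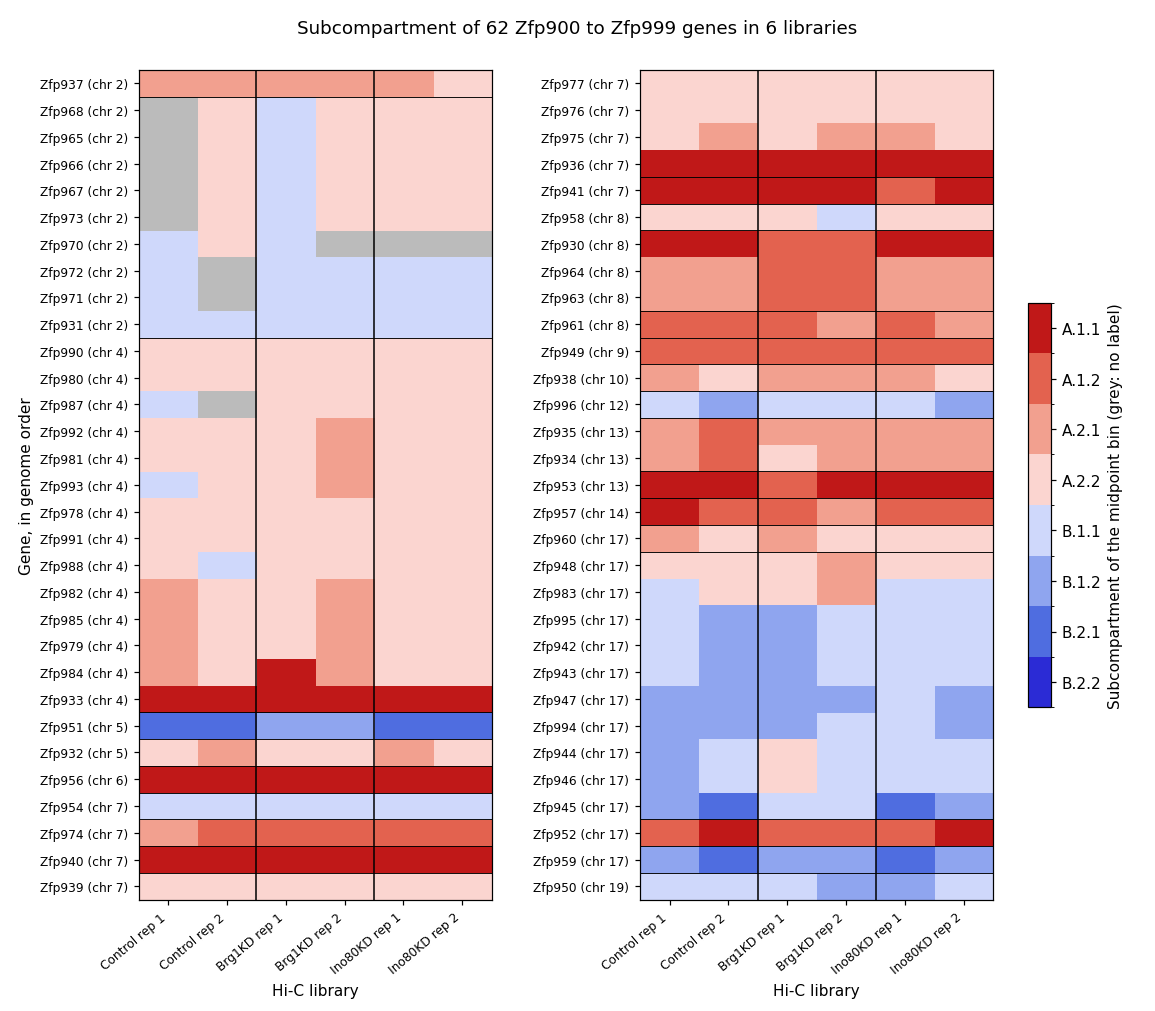
Subcompartment of the midpoint bin of each of the 62 members (rows, in genome order, with thin lines between clusters and single genes) in the 6 libraries (columns); red is A, blue is B and grey is no label. Runs of neighbours share 1 colour, the grey cells gather in the chromosome 2 cluster, and Zfp930, Zfp964 and Zfp963 on chromosome 8 change colour in both Brg1KD libraries.

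The members without a complete set of labels were almost all in 1 cluster. In all, 9 of 62 members (14.5%) lacked a label in at least 1 library, against 1.40% of protein-coding genes and 0.608% of bins. The cluster on chromosome 2 from Zfp968 to Zfp931 (chr2:175372034-178078425) holds 8 of the 9, and Zfp987 on chromosome 4 is the other. Of the 55 bins of that cluster, 39 had no label in control replicate 1 and 10 in control replicate 2, against 0 and 3 in the Brg1KD libraries and 3 in each Ino80KD library. Zfp968, Zfp965, Zfp966, Zfp967 and Zfp973 had no label in control replicate 1 and were in A.2.2 in control replicate 2, in B.1.1 in Brg1KD replicate 1 and in A.2.2 in the last 3 libraries. Zfp970 was in B.1.1 and A.2.2 in the controls and in B.1.1 in Brg1KD replicate 1, with no label in the rest. Zfp972 and Zfp971 lacked a label in control replicate 2 and were in B.1.1 elsewhere. No difference between groups can be read for these 8 genes, and Zfp931, in B.1.1 in all 6 libraries, is the only gene of the cluster that entered a test. The cluster holds 26 protein-coding genes, of which 16 have only a Gm symbol, the placeholder for a predicted gene.

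Promoter sequence shows how alike the members of that cluster are. RefSeq promoter windows of GRCm38.p6, from 250 bases before to 50 bases after a start of transcription, were matched for 55 of the 62 members. Aligned end to end, 9 pairs of members had windows at least 90% identical, and all 9 pairs lay in the chromosome 2 cluster. These pairs involve 7 members, whose closest match was 96.1% to 100% identical, and all 7 lacked a label in some library. Of the other 48 members with a window 2 lacked a label, Zfp972 and Zfp987. Reads from near-identical copies are often hard to place on 1 copy, and whether the missing labels come from this was not tested. Pairs in different clusters or with a single gene had a median identity of 46.4% and never more than 67.3%. The pair shown here, Zfp966 and Zfp967, was chosen after the values were seen because their windows are identical although they lie on opposite strands at chr2:175931101-175931350 (minus) and chr2:176520754-176521003 (plus). Zfp964 at chr8:69654306-69654462 (plus) and Zfp963 at chr8:69749963-69750212 (minus) are shown because both changed label in Brg1KD, as described further on. They are neighbours in 1 cluster, yet their windows were only 48.3% identical. Sequences run 5′ to 3′ on the strand of the gene and stop where the annotated gene begins. Capitals mark GATC, which DpnII, the enzyme used to cut the chromatin, recognises, and CCAATCA, which is the letters of a CCAAT box with 2 more.
Zfp966: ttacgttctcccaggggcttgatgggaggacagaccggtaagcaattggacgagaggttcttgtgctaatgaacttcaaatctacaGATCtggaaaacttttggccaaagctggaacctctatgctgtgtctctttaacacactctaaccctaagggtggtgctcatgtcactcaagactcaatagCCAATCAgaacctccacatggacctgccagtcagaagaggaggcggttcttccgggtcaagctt
Zfp967: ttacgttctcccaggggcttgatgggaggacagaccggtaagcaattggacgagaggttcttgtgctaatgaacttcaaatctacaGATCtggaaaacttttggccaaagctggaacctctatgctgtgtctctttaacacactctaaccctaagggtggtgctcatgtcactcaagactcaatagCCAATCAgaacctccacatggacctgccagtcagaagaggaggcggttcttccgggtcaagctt
Zfp964: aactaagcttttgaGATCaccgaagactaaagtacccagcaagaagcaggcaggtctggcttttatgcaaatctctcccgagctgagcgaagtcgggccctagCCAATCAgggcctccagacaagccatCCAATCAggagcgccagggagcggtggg
Zfp963: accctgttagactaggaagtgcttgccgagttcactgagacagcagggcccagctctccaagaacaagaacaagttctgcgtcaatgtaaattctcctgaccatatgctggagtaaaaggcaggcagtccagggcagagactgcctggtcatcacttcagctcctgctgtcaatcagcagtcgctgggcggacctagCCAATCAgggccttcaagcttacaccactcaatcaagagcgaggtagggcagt

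The capitals CCAATCA recur in all of these sequences, and this was counted in the full windows of 300 bases on both strands after it had been seen here. CCAATCA stood in 31 of 55 member windows (56.4%), against 14.2% of the other Zfp genes and 9.43% of all 16457 protein-coding genes with a window. The shorter CCAAT, which the longer motif contains, stood in 76.4% of member windows, 44.3% of other Zfp windows and 39.1% of all. Near-identical windows of 1 cluster are not independent counts, and the clusters were unlike each other. It was in 9 of 9 windows of the chromosome 2 cluster and 4 of 4 of the chromosome 7 cluster, but in 2 of 10 on chromosome 4 and 1 of 10 on chromosome 17. Among single genes it was in 12 of 19. Members in A in all libraries had it in 15 of 28 windows and members in B in all libraries in 6 of 12. Member windows were poorer in CG pairs, with a median of 8 against 14 for all genes and 15 for the other Zfp genes, and their median GC content was 49.3% against 56.7% for all genes and 55.2% for the other Zfp genes. GATC, searched on both strands at once since it is its own reverse complement, stood in 50.9% of member windows and 46.4% of all. TATAAA, the core of the TATA box, was found on either strand in 0 of 55 member windows in 7.32% of those of other Zfp genes and in 13.5% of all windows.

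Between Brg1KD and control cells 3 regions that hold members differed, and 2 of the regions adjoin each other on chromosome 8. Zfp964, Zfp963 and Zfp951 rose by 1 class and Zfp930 fell by 1 class in both Brg1KD libraries. The limma test gave each of the 4 an adjusted p of 8.00e-08 for Brg1KD against control. Towards A the called members were 3 of 53 (5.66%), where 1.49% of all protein-coding genes with a label were called. Towards B it was 1 of 53 (1.89%), where 1.99% were called, so that count lies at the background. Zfp964 and Zfp963 share 1 segment in every library and count as 1 region. The other Zfp genes had 13 of 296 called towards A (4.39%), a share near that of the members.

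The p-values of this test are not calibrated here, because ranks are whole numbers and 18941 of 47717 bins had no spread at all within the groups, these 4 members among them. With 1 variance common to all bins, the adjusted limma p of the 4 was 0.236, and that fit called 2 others towards A, where 1.24% of genes were called, and 0 towards B, where 1.49% were. The 2 were Zfp984 and Zfp945, both higher by 1.5 classes with an adjusted p of 0.0466. With the batch as a block the adjusted limma p of the 4 was 2.02e-05. The counts stayed at 3 and 1, but no share of all genes called in that fit stands beside them. Counted without a model, both Brg1KD libraries lay beyond both controls for 4 members towards A, the 3 called and Zfp945, where 3.29% of genes did so, and for 1 member, Zfp930, towards B, where 4.34% did. Leaving out a library says nothing about the stability of the 4 calls, since their ranks have no spread within any group. It did add calls of other members, in fits where the group left with 1 library is assumed to vary like the other groups. No share of all genes called in those fits stands beside these added calls, so they are not read as a result.

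On chromosome 8 the change was a step in the map that disappeared. Zfp930 was in A.1.1 in both control and both Ino80KD libraries and in A.1.2 in both Brg1KD libraries. Zfp964 and Zfp963 were in A.2.1 in the control and Ino80KD libraries and in A.1.2 in both Brg1KD libraries. The region that fell with Zfp930 spans 300 kb (chr8:69100001-69400000) and also holds Atp6v1b2, a subunit of the vacuolar proton pump, Lzts1, D130040H23Rik and Gm10033. The region that rose with Zfp964 and Zfp963 follows directly, spans 350 kb (chr8:69400001-69750000) and also holds 2 other zinc-finger genes, Zfp868 and Zfp869, with Gm9495 and Gm7697. In control and Ino80KD cells the ranks stepped from 8 to 6 at the boundary between the regions and back to 8 after the second. In both Brg1KD libraries both regions had rank 7, and the bins after the second stayed at rank 8. The mean rank of the 3 members of this cluster was 6.67 in both control and both Ino80KD libraries and 7 in both Brg1KD libraries, and it hides the opposite moves.

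Zfp951, a single gene on chromosome 5 (chr5:104802246-104860157), rose within the B side. It was in B.2.1 (rank 2) in both control and both Ino80KD libraries and in B.1.2 (rank 3) in both Brg1KD libraries. The called region spans 300 kb (chr5:104600001-104900000) and holds Gm31255 and Gm20385 besides Zfp951. The neighbouring bins, from 100 kb beyond the bin of Zfp951, moved the other way. From 100 to 300 kb beyond it they had rank 2 in both controls and rank 1, B.2.2, in both Brg1KD libraries. Up to 200 kb beyond the bin of Zfp951, 1 label ran over both stretches in the control and Ino80KD libraries, where both Brg1KD libraries had 2. From 250 kb on Ino80KD replicate 2 had rank 3.

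**Figure D3:**
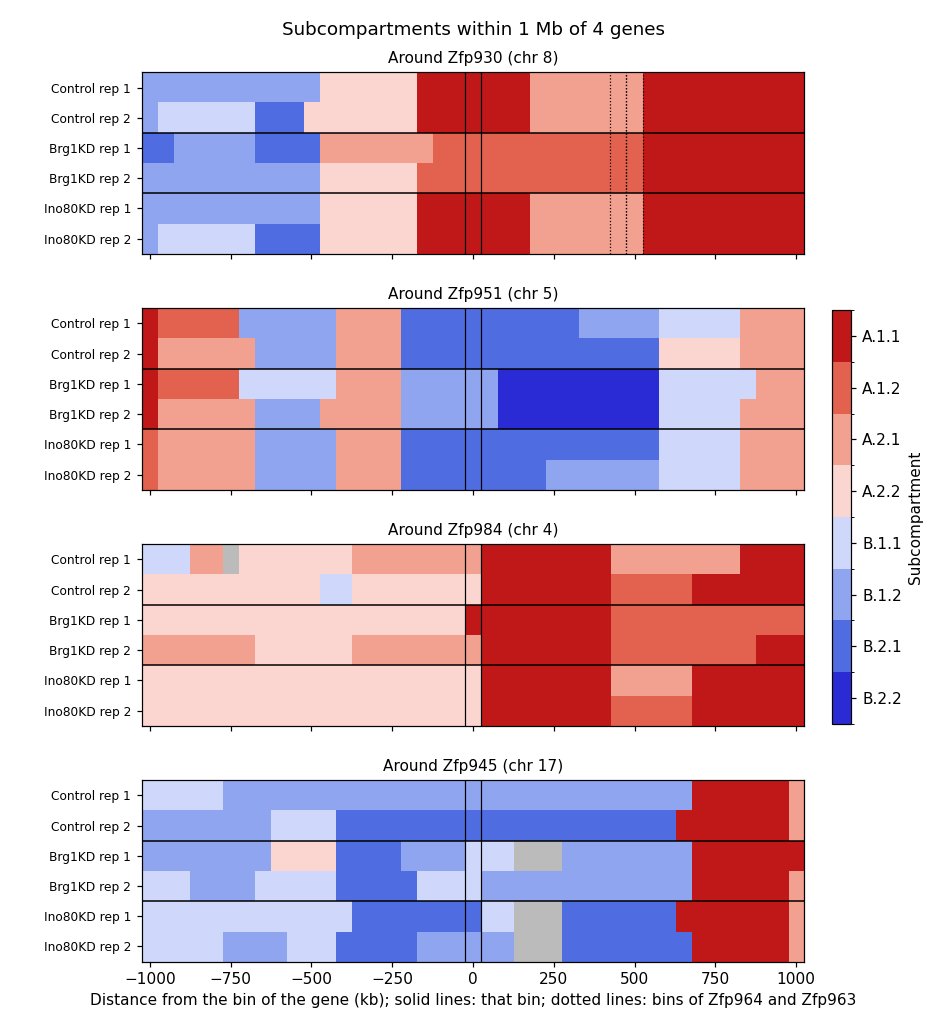
Subcompartments within 1000 kb (1 Mb) of the bins of Zfp930, Zfp951, Zfp984 and Zfp945 in the 6 libraries (rows); the x axis is the distance from the bin of the gene in kb, red is A, blue is B and grey is no label. Around Zfp930 the dark and the pale red blocks of the control and Ino80KD rows are 1 block in both Brg1KD rows, and around Zfp951 a blue block is split in both Brg1KD rows.

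A further 8 members differed by 1 class or more between the Brg1KD and control means without being called in the limma fit with eBayes. With the 4 called this made 12 of 53 members, where 2347 of 20375 protein-coding genes and 44 of 296 other Zfp genes differed as much. Zfp984 had ranks 6 and 5 in the controls, 8 and 6 in Brg1KD and 5 in both Ino80KD libraries. It is the last member before the A.1.1 block that starts at Zfp933, and in Brg1KD replicate 1 that block began 1 bin earlier. Zfp945 had ranks 3 and 2 in the controls, 4 and 4 in Brg1KD, and 2 and 3 in Ino80KD, so only the Brg1KD libraries were clear of the others. Zfp993 (controls 4 and 5, Brg1KD 5 and 6) and Zfp983 (the same ranks) were higher by 1 class, and their groups touched. Zfp944 and Zfp946, which share 1 segment, had ranks 3 and 4 in the controls and 5 and 4 in Brg1KD. Zfp934 (controls 6 and 7, Brg1KD 5 and 6) and Zfp957 (controls 8 and 7, Brg1KD 7 and 6) were lower by 1 class, again with touching groups. The limma adjusted p of that fit lay at 0.733 for Zfp945 and at 0.808 for the other 7.

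Averaged over the 53 members, the rank was 5.45 ± 0.08 (SD, n = 2) in Brg1KD and 5.30 ± 0.0534 in control cells. The difference was 0.151 classes, 0.0566 in batch 1 and 0.245 in batch 2, so it was positive in both batches but differed between them by more than its own size. All protein-coding genes shifted by -0.00456 classes and the other Zfp genes by 0.113. Of the members 18 were higher, 10 lower and 25 had the same mean, where 4145, 4045 and 12185 of 20375 protein-coding genes did. The median was 0 for the members as for all genes.

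**Figure D4:**
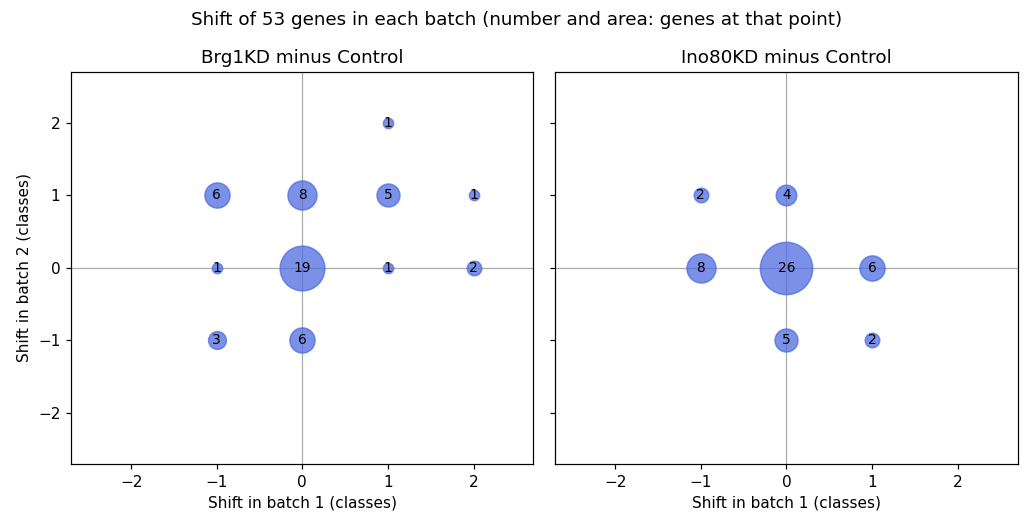
Shift of the 53 members in classes in batch 1 (x axis) and batch 2 (y axis), for Brg1KD minus control and Ino80KD minus control; the number in each circle and its area give the genes at that point. In the Brg1KD panel 7 genes were higher in both batches and 3 lower in both, and in the Ino80KD panel no gene moved the same way in both batches.

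The clusters differed in level and in shift. The chromosome 17 cluster from Zfp948 to Zfp945 (chr17:21565816-22867309, 10 members) had mean ranks of 3.60 and 3.50 in the controls, the lowest of the clusters with more than 1 labelled member. In Brg1KD they were 3.90 and 4.30 and in Ino80KD 3.90 and 3.80, so that both knockdowns lay above both controls, by 0.55 and 0.30 classes. The limma fit with eBayes on all 6 libraries called none of its 10 members in any comparison, the common variance called Zfp945 in Brg1KD against control, and the shift in Brg1KD was 0.30 in batch 1 and 0.80 in batch 2. The chromosome 4 cluster from Zfp990 to Zfp933 (chr4:145510759-147849126, 14 members, 13 with labels) had means of 5.46 and 5.15 in the controls, 5.46 and 5.77 in Brg1KD and 5.23 in both Ino80KD libraries, and its Brg1KD libraries overlapped the controls. In that cluster Zfp990 and Zfp980 were in A.2.2 in all libraries. The chromosome 7 cluster from Zfp977 to Zfp936 (chr7:42579397-43192109, 4 members) ran from A.2.2 at Zfp977 to A.1.1 at Zfp936 in every library, with shifts of 0 in both knockdowns. The pair on chromosome 13, Zfp935 and Zfp934 (chr13:62453016-62579321), had means of 6 and 7 in the controls, 5.50 and 6 in Brg1KD and 6 in both Ino80KD libraries, so the groups touched.

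Single members mostly stayed in 1 class or moved by 1 between libraries of the same group. Zfp956 and Zfp940 were in A.1.1, Zfp949 in A.1.2, Zfp939 in A.2.2 and Zfp954 in B.1.1 in all 6 libraries. Zfp937 and Zfp938 stayed between A.2.2 and A.2.1, as did Zfp960 and Zfp932, and Zfp932 is known as a repressor of endogenous retroviruses in embryonic stem cells. Zfp974 had rank 6 in control replicate 1 and 7 in the other 5 libraries, and Zfp961 had ranks of 6 and 7 with no order between groups. Zfp941 and Zfp953 were in A.1.1 in 5 libraries and in A.1.2 in the remaining one, Ino80KD replicate 1 for Zfp941 and Brg1KD replicate 1 for Zfp953, and Zfp952 alternated between these classes. Zfp958 was in A.2.2 except in Brg1KD replicate 2, where it was in B.1.1. On the B side Zfp996 and Zfp950 moved between B.1.1 and B.1.2, and Zfp959 between B.1.2 and B.2.1.

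Between Ino80KD and control cells no member passed the test. The limma test called 0 of 53 members towards A and 0 towards B against control, where 0.918% and 1.55% of protein-coding genes were called. At an unadjusted p under 0.05 it was 0 and 0 as well, where 1.18% and 1.76% of genes lay under it. With the common variance it was 0 and 0, where 0.422% and 0.319% of genes were called. Without a model both Ino80KD libraries lay beyond both controls for 0 members in each direction, where 1.97% and 2.86% of genes did so. No member differed by 1 class or more between the group means, where 1610 of 20375 protein-coding genes did. The mean shift of the members was -0.0283 classes, -0.0377 in batch 1 and -0.0189 in batch 2, and that of all protein-coding genes was -0.0245. With 1 library left out single members were called in some fits. No share of all genes stands beside them, so they are not read as a result. In Ino80KD more members had a rank next to the border than in control cells, but many of these share segments. Of the members 56.6% ± 2.67 (SD, n = 2) lay in B.1.1 or A.2.2 in Ino80KD, against 45.3% ± 2.67 in control and 45.3% ± 8.00 in Brg1KD, where the Ino80KD libraries (54.7% and 58.5%) did not overlap the controls but the Brg1KD libraries spanned 39.6% to 50.9%. For all genes this share was 13.6% ± 0.850 in Ino80KD and 13.2% ± 0.538 in control. Members of 1 segment are not independent counts. In Ino80KD replicate 1, 1 B.1.1 segment of 850 kb held Zfp983 to Zfp946 of the chromosome 17 cluster. Of these, Zfp947 to Zfp946 were in B.1.2 in control replicate 1. No test was made of this share.

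The direct comparison of the knockdowns gave the same 4 genes. Zfp951, Zfp964 and Zfp963 were 1 class higher and Zfp930 was 1 class lower in Brg1KD than in Ino80KD, with a limma adjusted p of 9.78e-08 for each, or 0.269 with the common variance. That is 3 of 53 towards A, where 1.42% of genes were called, and 1 of 53 towards B, where 1.31% were. This comparison shares its Brg1KD libraries with the first one, so the 4 calls are not a second observation of them. Without a model, 6 members were higher in both Brg1KD libraries than in both Ino80KD libraries, adding Zfp984, Zfp983 and Zfp945, where 3.95% of genes were, and 1 was lower, where 3.23% were. Zfp984 was 2 classes higher, with a common-variance limma adjusted p of 0.00235, the 1 call of that fit. Of all genes it called 0.545% towards A and 0.569% towards B. Zfp983 was in B.1.1 in both Ino80KD libraries and in A.2.2 and A.2.1 in Brg1KD, and was the only member with all libraries of the 2 knockdowns on opposite sides of the border, where 0.667% of genes had the same order. Here too, fits with 1 library left out added limma calls of other members, and these have no share of all genes beside them.

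The corepressor genes that work with KRAB zinc-finger proteins lay apart from most members. All 12 genes of the list, Trim28, Setdb1, Atf7ip, Cbx1, Cbx3, Cbx5, Dnmt1, Dnmt3a, Dnmt3b, Uhrf1, Morc3 and Smarcad1, were in A in every library. Their median rank was 8 in each library, and the lowest was Trim28 at rank 6 in Ino80KD replicate 1, with 7 in the other libraries. The limma test called 0 of the 12 in each of the 3 comparisons. Of all protein-coding genes 0.918% to 1.99% were called per comparison and direction, so 0 of 12 lies at the background. The shifts of the 12 ranged from -0.5 to 0.5 classes with a median of 0, as for all genes.

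Few loops reached the members. Each group has 1 list of loops, taken as pooled from its replicates, with 5903 loops for control, 6013 for Brg1KD and 5475 for Ino80KD and anchors of 10 kb, so counts from the lists have no replicate error and no test. A loop was assigned to a gene when an anchor held either end of the gene. In the control list 1 of 62 members had a loop (1.61%), where 11.6% of protein-coding genes had one. In the Brg1KD list it was 4 members (6.45%, all genes 11.6%) and in the Ino80KD list 3 (4.84%, all genes 11.1%). With anchors within 10 kb of a gene end these shares were 6.45%, 8.06% and 12.9% of members, against 27.3%, 27.4% and 26.3% of all genes, so the knockdowns changed order. The median distance from a member to the nearest anchor was 295.4 kb in the control list, 374.1 kb in the Brg1KD list and 234.8 kb in the Ino80KD list. For all protein-coding genes it was 38.1, 37.0 and 42.4 kb, and for the other Zfp genes 84.4, 78.2 and 88.7 kb. The 6 clusters span 7.63 Mb and were touched by 3, 5 and 7 loops in the control, Brg1KD and Ino80KD lists, or 0.393, 0.656 and 0.918 per Mb. The whole lists, divided by the length of all labelled bins, gave 2.46, 2.50 and 2.28 loops per Mb. These rates are unlike measures. A loop counted for a cluster by either anchor, while the second rate counted each loop once and did not limit the lists to autosomes. The 62 members and the 7.63 Mb include the chromosome 2 cluster, where most bins lacked a label in some library.

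The loop of Zfp941 on chromosome 7 was the only one with an anchor at a member end in all lists. It ran from the anchor at chr7:140800001-140810000, over the lower end of the gene, for 630 kb to the olfactory receptor gene Olfr523 in the control and Brg1KD lists. In the Ino80KD list its far anchor lay 1 bin away, at Olfr522, for a length of 640 kb. Its anchors lie in different compartments, since Zfp941 was in A.1.1 or A.1.2 and the bin of the far anchor in B.1.2 or B.2.1 in all libraries. At Zfp982 on chromosome 4 a loop of 1950 kb, from chr4:147510001-147520000 back to chr4:145560001-145570000, stood in both knockdown lists with identical anchors. The control list has it too but for 1 anchor, which lies 1 bin higher, past the end of the gene, so the difference in count at Zfp982 is 1 bin. That loop spans most of the chromosome 4 cluster. At Zfp956 on chromosome 6 a loop of 120 kb to 2 other zinc-finger genes, Zfp786 and Zfp398, was listed in Brg1KD, with none within 20 kb in the other lists.

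At the chromosome 8 cluster loops were listed in both knockdowns and not in control. The control list has 0 loops with an anchor in the span of the cluster (chr8:69209018-69749962) or at a member end there, and the knockdown lists have 4 each. One of them joins the lower end of Zfp930 (anchor chr8:69200001-69210000) to Atp6v1b2 (anchor chr8:69110001-69120000), 90 kb away, with identical anchors in both knockdown lists. The others were 260, 380 and 530 kb long in Brg1KD and 250, 350 and 540 kb in Ino80KD, and each had a match in the other knockdown list with both anchors within 20 kb. The longest reached Pbx4, a homeobox gene beyond the cluster. None of the 8 had a control loop within 20 kb, and over all loops 21.9% of the Brg1KD list and 16.4% of the Ino80KD list had none. With 500 kb added on both sides of the cluster the lists held 3, 7 and 7 loops. The loops thus appeared in both knockdown lists, while the labels of Zfp930, Zfp964 and Zfp963 differed from control in the Brg1KD libraries and were the same as control in both Ino80KD libraries.

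**Figure D5:**
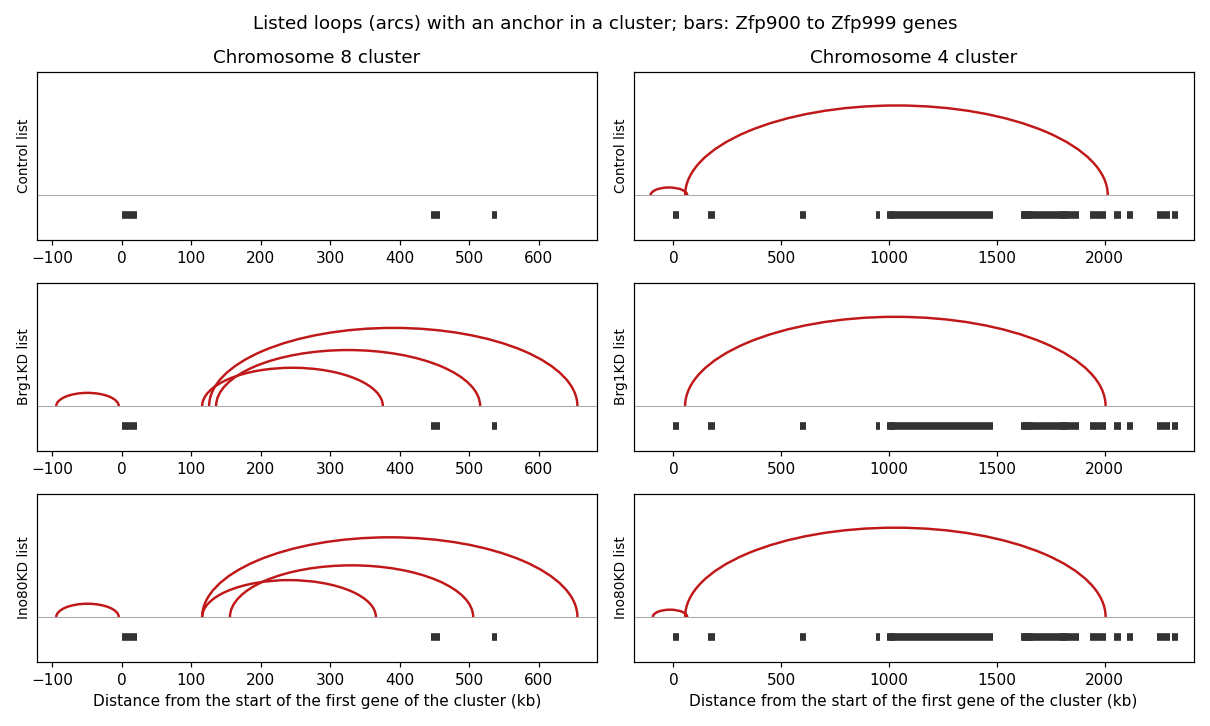
Listed loops (arcs, from anchor centre to anchor centre) with an anchor in the chromosome 8 cluster (left) and the chromosome 4 cluster (right), by list; the x axis is the distance from the start of the first gene of the cluster in kb, bars are member genes and the height of an arc only follows its length. On chromosome 8 the control list has 0 arcs and each knockdown list 4; on chromosome 4 the long arc is in all 3 lists.

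Elsewhere the lists held few loops at clusters. On chromosome 7 the control list has a loop of 190 kb with 1 anchor in the cluster. It runs from chr7:42460001-42470000, which lies before the cluster, to chr7:42650001-42660000 within it. Neither knockdown list has a match within 20 kb. On chromosome 17 the Ino80KD list has 1 loop of 90 kb, from chr17:22230001-22240000 to chr17:22320001-22330000, without a match in the others. On chromosome 4 a short loop of 170 kb in control and 160 kb in Ino80KD near Zfp990 had no match in Brg1KD. The clusters on chromosomes 2 and 13 had no loop with an anchor in their span in any list. In the chromosome 2 cluster 52 of 55 bins lacked a label in some library. Whether loops could be found there was not tested.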

How the data were processed

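Members and gene lists were chosen with earlier results of these data known. Per the submitters' processing notes, the genome build was mm10 and the tools were Juicer 2.0, BWA, HOMER, SAMtools and bedtools, with no role stated. The callers of subcompartments and loops were not given in the sources used here. Deposited segment files give each library's labels, with a score that is the rank of the label in equal steps. The deposited loop lists give anchor positions only, 1 list a group, recorded with replicate 2 and taken as pooled from both. Depth is unknown, so no counting interval was computed.

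Segments were cut into 50 kb bins, and 47717 of 48009 bins had a label in all 6 libraries. The rank (1 to 8) was fitted per bin over all 6 libraries with limma 3.58.1 in R 4.3.3 (lmFit, eBayes, Benjamini-Hochberg threshold 0.05 over all bins), and members were read off at their bin. Since many bins have no spread within groups, p-values from a common variance and counts without a model stand beside it. The common variance is the mean residual variance over bins. It was used in a z-test on the limma coefficients, with the Benjamini-Hochberg adjustment over all bins. Batches, and so pairs of libraries, come from the labels. Over bins, same-batch deviations from group means had a Pearson r of 0.0984 for control with Brg1KD, 0.102 for control with Ino80KD and 0.0885 for the 2 knockdowns.

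Genes were named by rule: called members, members that differed by 1 class or more, members with a loop, the first and last member of each cluster, and single members. Genes and promoter windows came from RefSeq (GRCm38.p6), and overlapping windows on opposite strands were reverse complements in 1668 of 1668 cases. Alternatives were the batch block, the variance, the place of the gene, each library left out, and the rules for loops and clusters. Python 3.11.15 was used for the rest.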

Additional observations from a re-analysis of the deposited data

Results flagged for a closer look

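The shift from control differed between the knockdowns for 4 members, by limma's direct comparison of the 2 groups (adjusted p 9.78e-08 for each). The shift in Brg1KD minus that in Ino80KD was 1 class for Zfp951, 1 class for Zfp964, 1 class for Zfp963 and -1 class for Zfp930. For all 4 the Ino80KD ranks equalled the control ranks. Zfp964 and Zfp963 share a segment, and the segment of Zfp930 adjoins theirs. With a common variance for all bins the z-test adjusted p was 0.269 for each. No explanation was tested.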

How the results depend on the processing

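With the batch as a replicate block, limma called 3 members towards A and 1 towards B in Brg1KD against control. It called 0 and 0 in Ino80KD against control, and 3 and 1 between the knockdowns. The block changed no count of members. No share of all genes called in the block fit stands beside these counts, so they are not read as a result. With a common variance all 4 calls were lost, against control and between the knockdowns. That fit called 2 members towards A, Zfp984 and Zfp945, and 0 towards B in Brg1KD against control, and 1 towards A, Zfp984, and 0 towards B between the knockdowns. Counted without a model, 6 members were higher in Brg1KD than in Ino80KD. At the bin of the start of transcription, chosen after seeing the data, 0 members were called towards B in Brg1KD against either group, because Zfp930 has no promoter window to place it. With 1 library left out, some fits called more members in every comparison. No share of all genes in the same fits stands beside those counts, so they are not read as a result. The mean shift in Ino80KD ranged from -0.066 to 0.00943 classes with 1 library left out, and was -0.00962 at the higher-coordinate gene end and 0 at the start of transcription, so it has no settled direction. The mean shift in Brg1KD stayed positive in all alternatives run. Loops at members numbered 4 (control), 6 (Brg1KD) and 8 (Ino80KD) with anchors within 10 kb of a gene end, so the order of the knockdowns turned, and 3, 6 and 5 with anchors anywhere on the gene. The first rule gave 6.45%, 8.06% and 12.9% of members with a loop (all genes 27.3%, 27.4% and 26.3%) and the second 3.23%, 8.06% and 6.45% (all genes 22.3%, 22.5% and 21.3%). The control loop at Zfp941 was in both other lists only with anchors matched within 20 kb (1), not identically (0). Depth is unknown, and 2 libraries a group limit every comparison.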
